A study of Mus musculus with 24 samples.

Results

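The HindIII fragments of mouse chromosome 17 that lie over 20 Mb from the wild-type Oct4 gene are described here by how often each was found ligated to Oct4. They were chosen by position alone, as fragments that start below base 15633988 or above base 55641095 in the mm9 build, and they number 14619 of the 25150 fragments on the chromosome. Of these, 3526 lie on the lower-coordinate side, between 20 and 32.63 Mb from the viewpoint, and 11093 lie on the higher-coordinate side, between 20 and 59.63 Mb away. The viewpoint was taken as the fragment with the highest pooled count, chr17:35633988-35641095, because no label gives its position. No count fell on the members nearest to either limit, chr17:15632615-15636531 and chr17:55642651-55646449. Just inside the limits, chr17:15636538-15640199 had 104 counts pooled over all libraries and chr17:55635527-55642644 had none.

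The series applied paired-end 4C sequencing to mouse embryonic stem cells of strain C57Bl/6 x 129/Sv at passage 7. The genotypes were OCF2ΔOCT4/SOX2, referred to below as the OctSox line, and OCF2ΔYY1, referred to as the YY1 line. Each line was assayed at day 0 and day 3 with 2 biological replicates, which gives 4 groups and 8 libraries at the wild-type Oct4 viewpoint out of 24 libraries in the series. Per its title the series concerns the onset of differentiation. No treatment that separates the days is named in the labels. They also do not say whether a line is a single clone. The labels also name, for both lines, a viewpoint on a mutated Oct4 sequence on chromosome 11, which was not analysed here. The groups compared are therefore OctSox day 0, OctSox day 3, YY1 day 0 and YY1 day 3, with no unmodified line among them.

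In 4C, crosslinked chromatin is cut and religated, and the DNA joined to a chosen fragment is amplified and counted, so that a count stands for ligation to the viewpoint. The Pou5f1 gene encodes Oct4, which maintains pluripotency as a transcription factor and is switched off as embryonic stem cells differentiate. Contact within a chromosome is known to fall with distance, and contacts over long distances are mostly between regions of like chromatin state, active with active and inactive with inactive.

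The 8 libraries held between 16297 and 406507 counts on chromosome 17, and between 7090 and 333751 without the viewpoint and the fragment next to it on each side. Shares below are percentages of the counts outside these 3 fragments. The shallowest libraries were day 3 replicate 2 of both lines, with 7976 counts in the OctSox line and 7090 in the YY1 line. In YY1 day 3 replicate 2 0 counts are set at a limit of 3 counts of the total, a share of 0.0423%, and in YY1 day 0 replicate 1, the deepest, of 0.000899%. The viewpoint and its neighbours held between 2.38% and 72.5% of a library's counts. The labels call the replicates biological without naming separate cultures, so a p-value measures the spread between these libraries only, and since no source used here names a removal of PCR duplicates, all intervals and limits cover counting error only.

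At day 3 a larger share of the contacts lay beyond 20 Mb than at day 0, on both sides of Oct4 and in both lines. On the lower side the OctSox libraries had 2.72% (95% Wilson interval 2.62 to 2.81) and 3.42% (3.17 to 3.69) at day 0. Their day 3 shares were 4.67% (4.57 to 4.78) and 5.54% (5.06 to 6.07). The YY1 libraries had 3.23% (3.17 to 3.29) and 3.10% (2.97 to 3.24) at day 0, against 5.95% (5.75 to 6.16) and 5.98% (5.45 to 6.56) at day 3. All day 3 libraries were above all day 0 libraries on this side. On the higher side the OctSox libraries had 8.55% (8.39 to 8.72) and 13.6% (13.1 to 14.1) at day 0. Their day 3 shares were 14.9% (14.8 to 15.1) and 17.1% (16.3 to 17.97). The YY1 libraries had 10.7% (10.6 to 10.8) and 11.6% (11.3 to 11.8) at day 0, against 19.4% (19.1 to 19.8) and 17.2% (16.3 to 18.1) at day 3. The days again did not overlap, while the OctSox day 0 replicates differed from each other by more than their counting error.

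**Figure D1:**
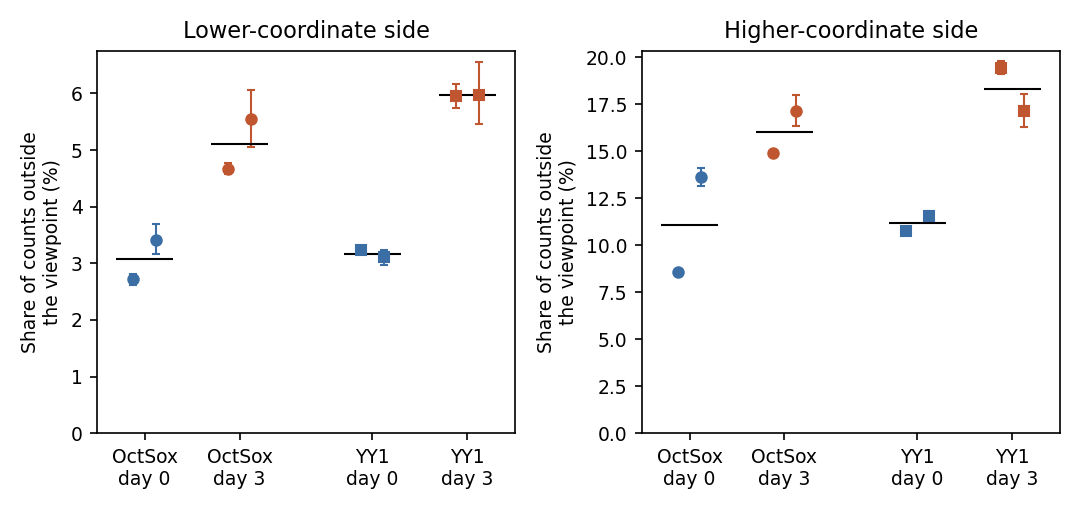
Share of the counts outside the viewpoint (percent) that fell on the lower side (left) and the higher side (right) beyond 20 Mb, for each library, with 95% Wilson intervals and the group mean as a line. Every day 3 library sits above every day 0 library on both sides, between 4.67% and 5.98% against 2.72% to 3.42% on the lower side.

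Averaged over both lines, the lower side held 3.12% ± 0.296 (SD, n = 4) at day 0 and 5.54% ± 0.611 (SD, n = 4) at day 3, a difference of 2.42 percentage points. It amounted to 2.04 points in the OctSox line and 2.80 points in the YY1 line. The higher side held 11.1% ± 2.10 (SD, n = 4) and 17.2% ± 1.85 (SD, n = 4), a difference of 6.04 points, with 4.94 points in the OctSox and 7.14 points in the YY1 line. In the two-sided exact permutation test of day within lines, each side gave p = 0.0556, the smallest p that its 36 arrangements allow, and an adjusted p of 0.111 over 4 library measures, so neither could pass 0.05 in this design. The counts within 2 Mb of Oct4 came to 60.9% ± 7.24 at day 0 and 50.6% ± 5.78 at day 3, and those from 2 to 20 Mb away to 24.8% ± 5.10 and 26.7% ± 4.41 (SD, n = 4 each). Per count at 2 to 20 Mb, the libraries held between 0.517 and 0.656 far counts at day 0 and between 0.717 and 1.07 at day 3, again without overlap.

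The size of the day difference depends on the viewpoint fragments themselves. They held 21.5% ± 34.1 (SD, n = 4) of all counts at day 0 and 43.5% ± 16.4 (SD, n = 4) at day 3, and their part in the result was not tested. The day 0 mean was set by OctSox replicate 1, with 72.5%, while the other day 0 libraries had 8.72%, 2.38% and 2.61%. At day 3 the values ran from 24.5% to 57.8%. With them kept in the total, the differences were 0.604 points on the lower side (exact permutation p = 0.500) and 0.621 points on the higher side (exact permutation p = 0.833). OctSox day 0 replicate 1 then held 0.748% on the lower and 2.36% on the higher side. The other day 0 libraries held 3.02% to 3.15% and 10.5% to 12.4%, and the day 3 libraries 2.34% to 4.49% and 7.22% to 14.7%. When each fragment with a count was scored as 1, whatever its count, the shares became percentages of all fragments seen. These were not thinned to equal depth. The day differences were then 1.11 and 1.79 points (exact permutation p = 0.222 and 0.611). Without the shallow day 3 replicate 2 libraries they were 2.19 and 6.06 points, nearly as large, with an exact permutation p of 0.111 that is the smallest 9 arrangements allow.

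The far counts were spread thinly over many fragments. Pooled over the libraries they came to 119381, with 27791 on the lower and 91590 on the higher side. A count was found on 8016 of the 14619 fragments (54.8%) in at least 1 library and on none of the other 6603, at depths that leave low contact undetected. Of the fragments seen, 3380 (42.2%) were seen in a single library, while 102 had counts in 6 libraries, 15 in 7 and 6 in all 8. The share seen was alike on the sides, 55.6% on the lower and 54.6% on the higher, and was 62.9% among the 9663 fragments from 2 to 20 Mb away. In single libraries it ran from 2.39% of the far fragments in YY1 day 3 replicate 2 to 33.0% in YY1 day 0 replicate 1, the shallowest and the deepest library.

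Thinned to 7090 counts, the libraries would show 634 ± 123 (SD, n = 4) far fragments at day 0 and 707 ± 392 (SD, n = 4) at day 3. Their range at day 3, from 349 in YY1 replicate 2 to 1172 in YY1 replicate 1, enclosed all values of day 0, which ran from 496 to 781. When libraries were left out, the depth was reset to the smallest total among those kept, so the differences are not all at the same depth. It was 18609 counts without both day 3 replicate 2 libraries and 7976 without YY1 day 3 replicate 2. With all libraries, at 7090 counts, the difference of 72.7 fragments gave an exact permutation p of 0.889. Without the shallow day 3 replicate 2 libraries it was 675.1, with an exact permutation p of 0.111, the smallest that 9 arrangements allow. It was 296.8 without YY1 day 3 replicate 2 and 189.8 without OctSox day 3 replicate 2, and turned to -133.1 without YY1 day 3 replicate 1 and to -44.5 without OctSox day 3 replicate 1. The day 3 libraries were thus not alike: a fixed number of counts touched most far fragments in YY1 replicate 1 and OctSox replicate 1, and fewest in the shallow replicate 2 libraries. The 10 most counted far fragments of a library held between 3.49% and 16.6% of its far counts at day 0 and between 4.87% and 19.3% at day 3. The means were 7.35% ± 6.20 and 12.5% ± 7.63 (SD, n = 4 each; exact permutation p = 0.278). The highest values, from 16.6% to 19.3%, were those of OctSox day 0 replicate 2 and the day 3 replicate 2 libraries. These were the shallowest libraries, with 18609, 7976 and 7090 counts outside the viewpoint. The others had 51489 counts or more and values from 3.49% to 7.02%. This measure was not thinned to equal depth. Without the day 3 replicate 2 libraries the difference turned to -1.40 points.

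A far fragment that was seen carried fewer counts than one seen at 2 to 20 Mb in 7 of 8 libraries. In the deepest library it carried 9.66 counts on average, against 18.6 at 2 to 20 Mb, and in the shallowest 4.70 against 4.50. The mean log2 ratio was -0.37 ± 0.32 (SD, n = 8), which is 0.773-fold, with a two-sided exact sign-flip permutation p of 0.0234. Fragments with exactly 1 count made up between 18.6% and 39.9% of the far fragments seen.

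At matched distance the lower side had less contact per fragment than the higher side. Most of that gap was gone when the highest far window, on the higher side, was left out. The comparison set the 3526 lower fragments against the 3438 higher fragments no farther than 32.63 Mb away. The lower side held 0.771, 0.969, 1.33 and 1.57% of the counts per 1000 fragments in the OctSox libraries in order of day and replicate, and 0.916, 0.880, 1.69 and 1.70% in the YY1 libraries. The matched higher side held 0.944, 1.75, 1.84 and 1.54% and 1.34, 1.37, 2.28 and 1.55%. The lower side was below the higher in 6 of 8 libraries, all but the shallow day 3 replicate 2 libraries. The mean log2 ratio was -0.38 ± 0.33 (SD, n = 8), a fold of 0.766, with a two-sided exact sign-flip permutation p of 0.0313. It kept p under 0.05 with either shallow day 3 replicate 2 library left out, and had an exact sign-flip permutation p of 0.0625 when any 1 of the other 6 libraries was left out. Without the window at 56 Mb, described below, it was -0.04 (exact sign-flip permutation p = 0.680), an alternative added after that window was seen. No window was left out on the lower side, so some narrowing of the gap was built in. Over all far fragments of both sides it was -0.07 (exact sign-flip permutation p = 0.258). By day the log2 ratio was -0.58 ± 0.23 at day 0 and -0.19 ± 0.31 at day 3 (SD, n = 4 each), with an exact permutation p of 0.167 for the day difference.

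Beyond 20 Mb, contact did not fall evenly with distance. In steps of 5 Mb on the higher side, the mean share per 1000 fragments was 1.91% ± 0.603 (SD, n = 8) at 20 to 25 Mb, 0.924% ± 0.304 at 25 to 30 Mb, 1.64% ± 0.394 at 30 to 35 Mb and 1.60% ± 0.579 at 35 to 40 Mb. It was 0.854% ± 0.259 at 40 to 45 Mb, 1.54% ± 0.531 at 45 to 50 Mb, 1.38% ± 0.454 at 50 to 55 Mb and 0.417% ± 0.331 at 55 to 60 Mb. The band at 45 to 50 Mb was thus above that at 25 to 30 Mb, and the last band before the end of the chromosome was the lowest. On the lower side the shares were 1.35% ± 0.480 (SD, n = 8) at 20 to 25 Mb, 1.27% ± 0.472 at 25 to 30 Mb and 0.924% ± 0.457 beyond 30 Mb, steps smaller than the spread over libraries. All 11 bands had a higher mean at day 3, and the lowest had 0.177% ± 0.0492 at day 0 and 0.657% ± 0.316 at day 3 (SD, n = 4 each).

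In fixed windows of 1 Mb the far region split into windows of high and low contact that recurred between libraries. Of 55 windows, 53 had at least 100 fragments and were ranked by mean share per fragment over the 8 libraries. The highest had 6.92% of the counts per 1000 fragments, the median window 1.13% and the lowest 0.218%, a range of 31.7-fold. The 5 highest, all on the higher side, together held 25.9% of the far share. Over the 53 windows, the shares per fragment of any 2 libraries had Spearman correlations between 0.383 and 0.915, with a median of 0.757 over 28 pairs. Leaving out the shallow day 3 replicate 2 libraries, the median was 0.827 over 15 pairs. Pairs across days of a line (median 0.821 over 4 pairs) and across lines at a day (0.833 over 5) then lay in the same range as the 2 replicate pairs, 0.746 and 0.915. These are descriptions across windows, and all libraries share the same fragments.

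**Figure D2:**
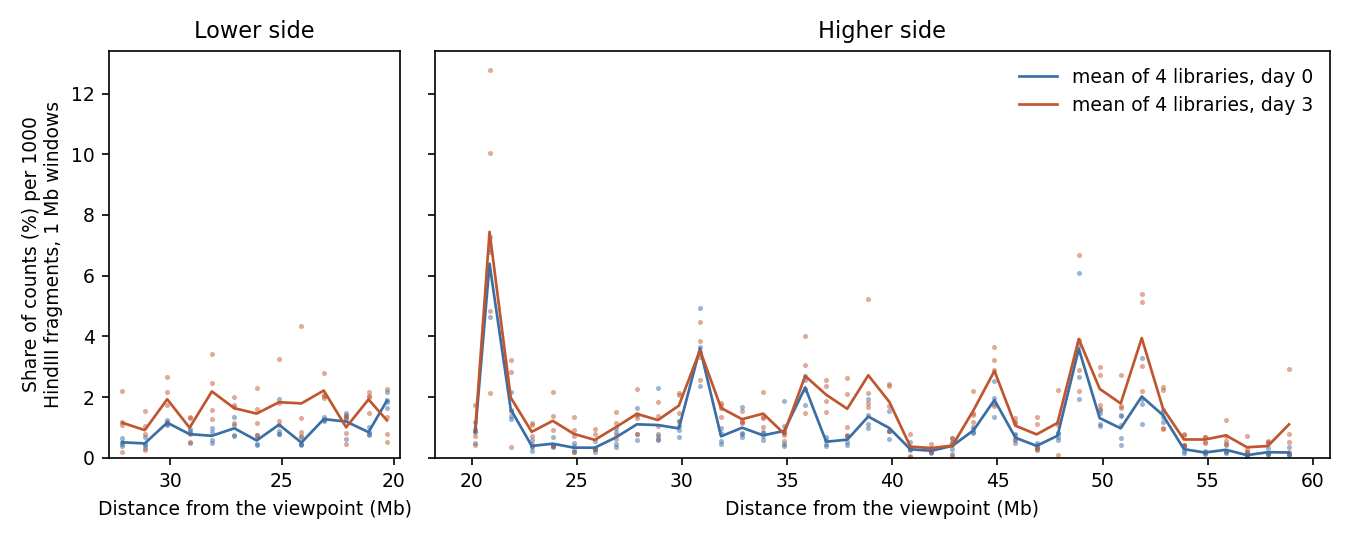
Share of the counts (percent) per 1000 HindIII fragments in each ranked 1 Mb window against its distance from the viewpoint (Mb), for the lower side (left) and the higher side (right). Points are single libraries and lines are means of 4 libraries, blue for day 0 and orange for day 3. The highest peak lies 20.9 Mb from the viewpoint, with further peaks at 30.9, 48.9 and 51.9 Mb and low stretches near 42 Mb and beyond 54 Mb.

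The window with the most contact per fragment was chr17:56003235-57009960, 20.9 Mb from the viewpoint, here the window at 56 Mb. Per 1000 fragments it held 4.65% and 7.27% of the counts in the OctSox libraries at day 0, 10.0% and 2.12% at day 3, 6.77% and 6.88% in the YY1 libraries at day 0, and 12.8% and 4.84% at day 3. It ranked among the 5 highest windows in 7 of 8 libraries, the exception being OctSox day 3 replicate 2, where it held 34 counts. Taken over all libraries, the contact was spread over the window. Of its 201 fragments 81.6% were seen, its most counted fragment held 4.65% of it, and all 10 of its 100 kb bins were above the far mean of 1.26%. In single libraries the most counted fragment held from 3.76% in YY1 day 0 replicate 1 to 43.5% in YY1 day 3 replicate 2. It held 19.5% in YY1 day 3 replicate 1. The day 3 replicate 2 libraries had 15 fragments seen in the OctSox and 13 in the YY1 line. Days overlapped in this window, with means of 1.28% of the counts at day 0 and 1.497% at day 3.

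The second, chr17:84013340-85003757 at 48.9 Mb, had 3.75% ± 1.76 (SD, n = 8) per 1000 fragments and was among the 5 highest in 7 of 8 libraries. Here a single fragment of 18865 bases, chr17:84285455-84304319, held 32.5% of the window, and without it the window had 2.55% per 1000 fragments. That fragment was the most contacted of all far fragments and the only one with a median count of at least 40. Its counts were 31 and 170 in the OctSox libraries at day 0, 18 and 88 at day 3, 99 and 132 in the YY1 libraries at day 0 and 14 and 7 at day 3. It was seen in every library, yet replicates differed widely: 0.0277% and 0.914% of the counts at OctSox day 0, and 0.0112% and 1.10% at OctSox day 3.

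The third, chr17:66002353-67000440 at 30.9 Mb, was the most even over libraries. It held between 2.36% and 4.93% per 1000 fragments, with 3.57% ± 0.871 (SD, n = 8), and was the only one of the 5 among the 10 highest windows of all 8 libraries. Of its 292 fragments 83.6% were seen, and its 100 kb bins ran from 1.31% to 5.60%, all above the far mean. The window chr17:87000266-88011096 at 51.9 Mb had 2.98% ± 1.57 (SD, n = 8), with 1.11% and 3.28% in the OctSox libraries at day 0, 2.21% and 5.41% at day 3, 1.77% and 1.93% in the YY1 libraries at day 0 and 3.02% and 5.14% at day 3. Its days were apart in the YY1 line and overlapped in the OctSox line. The window chr17:71000829-72002758 at 35.9 Mb had 2.51% ± 0.793 (SD, n = 8) and was among the 5 highest in 6 libraries.

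The 5 windows with the least contact were all on the higher side too, at 92, 77, 93, 76 and 90 Mb. The lowest, chr17:92003380-93001746, had 61 of its 291 fragments seen (21.0%) and held 32 and 2 counts in the OctSox libraries at day 0, 135 and 17 at day 3, 90 and 22 in the YY1 libraries at day 0 and 27 and 4 at day 3. Per 1000 fragments this came to 0.218% ± 0.221 (SD, n = 8). It was among the 10 lowest windows in all 8 libraries, as was chr17:77000411-78004618, with 0.277% ± 0.102 (SD, n = 8). The windows chr17:93001753-94004132 and chr17:76002535-77000404 had 0.286% ± 0.210 and 0.326% ± 0.250 (SD, n = 8), and chr17:90003299-91001324 had 0.389% ± 0.241 (SD, n = 8). None of the 10 bins of 100 kb in any of these 5 windows reached the far mean of 1.26%. Low windows lay side by side, with the windows from 76 to 78 Mb at ranks 50, 52 and 48 of 53, and those from 89 to 93 Mb at ranks 47, 49, 45, 53 and 51.

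**Figure D3:**
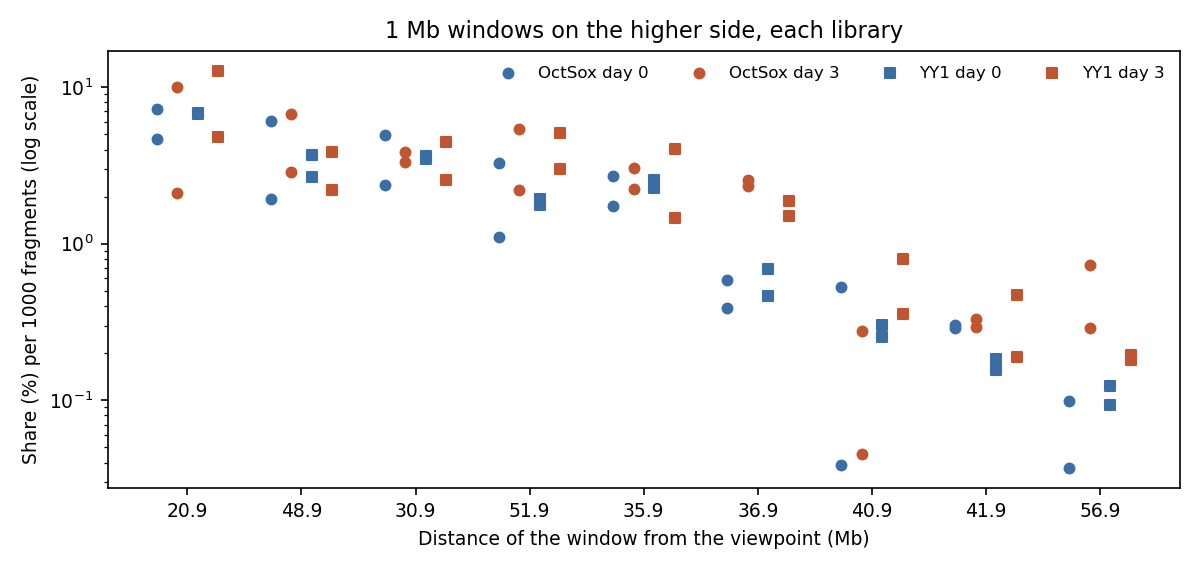
Share of the counts (percent) per 1000 fragments, on a log axis, in 9 windows named by their distance from the viewpoint (Mb): the 5 windows of most contact, the window at 36.9 Mb that passed the day test, and 3 of the 5 of least contact. Circles are OctSox and squares YY1 libraries, blue at day 0 and orange at day 3. The high and low windows are separated in every library, and at 36.9 Mb each line has its day 3 libraries above its day 0 libraries.

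Window contact went with how many of its fragments were seen, and contact per fragment with the size of those fragments. Over the 51 windows that span a full 1 Mb, the share per fragment had a Spearman correlation of 0.890 with the percentage of fragments seen, which ran from 21.0% to 83.6%. Both come from the same counts, so a positive relation is in part built in. The share per fragment had a correlation of -0.480 with the number of HindIII fragments in the window, 201 to 334. Contact was thus higher where HindIII sites were sparser, and the share of a whole window gave -0.391. By length, fragments under 0.5 kb had 0.881% ± 0.266 (SD, n = 8) of the counts per 1000 fragments, those of 2 to 5 kb 1.26% ± 0.397 and those of 10 kb or more 2.00% ± 0.895. Per Mb of sequence the order was the reverse, from 2.72% under 0.5 kb through 0.381% at 2 to 5 kb to 0.148% at 10 kb or more. The share of fragments seen showed no steady order with length, and lay between 50.0% under 0.5 kb and 59.9% at 0.5 to 1 kb. The relations are across windows or fragments of the same libraries and carry no test.

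The windows were next compared between days with edgeR's quasi-likelihood test, scaled by the counts outside the viewpoint, to ask where on the chromosome the higher share of day 3 lay. Over both lines, 50 of 54 far windows tested were higher at day 3, and 1 of them, at 72 Mb, passed the threshold. The median log2 fold change was 0.78 over the far windows, 0.41 over all 95 windows tested and 0.08 over the 41 nearer ones. The single call stands against 1.05% of all windows called. At an unadjusted p under 0.05 in edgeR there were 24 far windows, all higher at day 3, against 27.4% of all windows. DESeq2 used size factors of its own in place of the counts outside the viewpoint. It called 2 far windows, against 7.14% of the 56 windows to which it gave an adjusted p. To 25 of the 54 far windows it gave none. In 18 far windows the day 3 libraries lay above the day 0 libraries in both lines, against 21.1% of all windows, and in none did they lie below. The difference was thus spread over most far windows, and few stood out by this test. In simulated data for this comparison, edgeR recovered 3 of 12 windows changed 2-fold and 11 of 12 changed 4-fold. Fitted in the YY1 line alone, it recovered 0 of 12 and 9 of 12. The small number of calls therefore does not show that the shift was even. Scaled by the far counts alone the median over far windows was 0.10, and with TMM factors 0.37, each with 0 calls, so the size of the shift follows the total used.

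**Figure D4:**
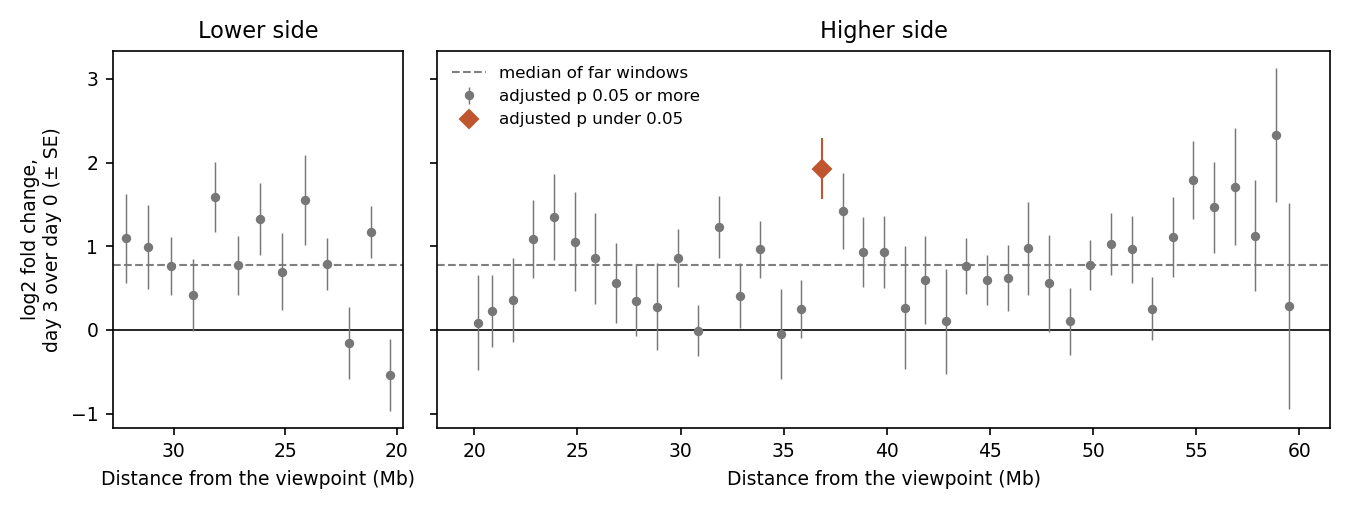
log2 fold change of day 3 over day 0 in each far 1 Mb window, fitted over both lines by edgeR, against distance from the viewpoint (Mb); bars are the SE of the fit and the dashed line is the median of far windows, 0.78. Grey points did not pass the adjusted threshold, and the orange diamond, 36.9 Mb from the viewpoint, did.

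The window that rose was chr17:72002765-73001283, 36.9 Mb from the viewpoint. It held 0.163% and 0.108% of the counts in the OctSox libraries at day 0, 0.709% and 0.652% at day 3, 0.190% and 0.128% in the YY1 libraries at day 0, and 0.420% and 0.522% at day 3. All day 3 values were above all day 0 values. The log2 fold change was 1.92 ± 0.36 (SE; edgeR, Benjamini-Hochberg adjusted p = 0.0133), with mean shares of 0.147% and 0.576%. At OctSox day 3 replicate 1 a single fragment held 654 of the window's 1140 counts, and at YY1 day 3 replicate 2 one held 22 of 37. Without the most counted fragment of each window, an alternative added after seeing the data, the log2 fold change was 1.65 (adjusted p = 0.0574), and scaled by the far counts alone it was 1.20 (adjusted p = 0.0965). The call was also lost without OctSox day 0 replicate 1 (adjusted p = 0.0503), OctSox day 0 replicate 2 (0.0651) or YY1 day 0 replicate 2 (0.0841).

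The windows next in order of p did not pass. The low window at 90 Mb held 0.0483% and 0.0645% of the counts in the OctSox libraries at day 0, 0.161% and 0.226% at day 3, 0.0737% and 0.0394% in the YY1 libraries at day 0 and 0.223% and 0.169% at day 3. Its days did not overlap, and its log2 fold change was 1.79 ± 0.47 (SE; edgeR adjusted p = 0.0623). On the lower side, chr17:7002950-8000474 held 0.147% and 0.124% in the OctSox libraries at day 0, 0.320% and 0.865% at day 3, 0.246% and 0.215% in the YY1 libraries at day 0 and 0.398% and 0.621% at day 3. It likewise did not overlap between days within either line, with a log2 fold change of 1.59 ± 0.42 (SE; edgeR adjusted p = 0.0623).

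Within the OctSox line no far window of 53 tested passed in edgeR, nor did any of all 94 windows (0% called), and DESeq2 called 0. At an unadjusted p under 0.05 there were 6 far windows, all higher at day 3, against 7.45% of all. The median log2 fold change was 0.66, 44 far windows were above 0, and in 24 the day 3 libraries were both above the day 0 libraries, against 30.9% of all windows, and in 1 both were below, against 1.06%. The window at 72 Mb had a log2 fold change of 2.31 ± 0.62 (SE; edgeR adjusted p = 0.477), those at 7 Mb and 92 Mb 2.09 ± 0.71 and 2.67 ± 0.92 (SE; edgeR adjusted p = 0.577 for both). In simulated data for this line with 12 windows changed 4-fold, edgeR recovered 0 of them.

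Within the YY1 line, 3 far windows of 54 tested rose, all with an adjusted p of 0.0407 in edgeR, against 3.16% of all windows called. The median log2 fold change was 0.92. In 33 far windows both day 3 libraries were above both day 0 libraries, against 47.4% of all windows, and in none were both below, against 6.32%. At an unadjusted p under 0.05 there were 18 far windows, all higher at day 3, against 23.2% of all. DESeq2 called 2 far windows, against 4.21% of all. The calls depended on single libraries. There were 0 when day 0 replicate 1 was left out and 1 when day 0 replicate 2 was. There were 25 (21 higher, 4 lower) without day 3 replicate 1 and 27 without its counterpart, where the lone library was assumed to vary like the other group.

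The 3 windows differ in what carried them. The one with the largest change, chr17:94004139-95015521, held 0.0440% and 0.0476% of the counts at YY1 day 0, against 0.169% and 0.973% at day 3 (log2 fold change 3.56 ± 0.83, SE). Of the 69 counts in YY1 day 3 replicate 2, 68 lay on chr17:94007735-94010179, a fragment with no count in the other 7 libraries and the second most contacted far fragment by mean share. Without the 10 most contacted far fragments the log2 fold change was 1.28 (edgeR adjusted p = 0.335). The window chr17:11001688-12004096 on the lower side held 0.140% and 0.144% at day 0, against 0.406% and 1.35% at day 3 (log2 fold change 2.58 ± 0.58, SE). Its counts in YY1 day 3 replicate 2 lay on 12 fragments, the largest with 28 of 96. The window chr17:95015528-95272651, at the end of the chromosome, rested on few counts, 32 and 8 at day 0 against 25 and 4 at day 3 (log2 fold change 2.21 ± 0.46, SE). As shares these were 0.00959% and 0.0131% at day 0, against 0.0486% and 0.0564% at day 3. In the OctSox line, replicate 1 went the other way, from 0.0447% at day 0 to 0.00684% at day 3. None of the 3 was called with the far counts alone as the total or without the most counted fragment of each window.

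Between the lines no far window of 54 passed in edgeR with day as a covariate, nor any of all 95 (0% called). DESeq2 called 0 far windows, against 1.05% of all, and 1 far window had an unadjusted p under 0.05 in edgeR, against 6.32% of all. The median log2 fold change of YY1 over OctSox was 0.09, and it was -0.16 with TMM factors, so it has no settled sign. In 3 far windows the YY1 libraries lay above the OctSox libraries at both days, against 9.47% of all windows. The window with the smallest p, at 86 Mb, held 0.113% and 0.177% of the counts in the OctSox libraries at day 0, 0.458% and 0.288% at day 3, 0.379% and 0.366% in the YY1 libraries at day 0 and 0.723% and 0.437% at day 3. The lines were apart at day 0 and overlapped at day 3, and the log2 fold change was 1.01 ± 0.37 (SE; edgeR adjusted p = 0.434). The windows at 85 and 80 Mb followed, with 0.63 ± 0.30 and 0.54 ± 0.30 (SE; edgeR adjusted p = 0.710 and 0.926).

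The test of the difference in day effect between the lines called 0 of 95 windows (0%), far or near, in edgeR and 0 in DESeq2, and 3 far windows had an unadjusted p under 0.05, against 3.16% of all. These were the windows at 95, 11 and 10 Mb, with day effects larger in the YY1 line by 4.39 ± 1.72, 2.14 ± 0.89 and 1.79 ± 0.80 on the log2 scale (SE; edgeR adjusted p = 0.889 for each). The window at 95 Mb had no count in replicate 2 of either OctSox day, for which the limit of 3 counts is 0.0161% at day 0 and 0.0376% at day 3. That the YY1 line passed the threshold in 3 windows and the OctSox line in none is thus not shown to be a difference between the lines.

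Single far fragments could hardly be compared. In simulated data, edgeR recovered 0 of the fragments changed 4-fold in each comparison. Of the 1270 fragments of the chromosome that passed the filter on low counts, 240 were far, so 240 of 14619 were tested. The filter could keep a fragment through its counts in a single group of libraries. Over both lines edgeR called 0 of these and 0 of all (0%), with 13 far fragments at an unadjusted p under 0.05, 9 higher and 4 lower at day 3, a count of 13 in 240 against 4.65% of all fragments. DESeq2 called 1 far fragment, against 1.18% of the 679 fragments to which it gave an adjusted p, and it gave none to 163 of the 240 far ones. The fragment it called, chr17:65964266-65966857, had 553 counts in OctSox day 3 replicate 1, 12 in YY1 day 3 replicate 1, 1 each in OctSox and YY1 day 0 replicate 1 and none in the other 4 libraries. Its edgeR adjusted p was 0.200 and its DESeq2 adjusted p 0.0157. Next in order of p, chr17:75913859-75915375 had 14 counts in OctSox day 3 replicate 2, 7 in YY1 day 3 replicate 2 and 4 in YY1 day 0 replicate 1, and chr17:80862289-80863664 had 110, 16 and 8 counts in 3 day 0 libraries and none at day 3 (edgeR adjusted p = 0.266 and 0.424). In the OctSox line edgeR called 0 of 109 far fragments tested and 0 of all 731 (0%), with 0 far ones at an unadjusted p under 0.05, against 2.33% of all, and DESeq2 called 0. The 3 smallest p belonged to fragments starting at 83897649, 84617038 and 91186347 (edgeR adjusted p = 0.9996 for each). They had 28 and 6, 31 and 3, and 33 and 4 counts at OctSox day 3 and none at OctSox day 0. They too passed the filter only through their day 3 counts.

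In the YY1 line edgeR called 0 of 69 far fragments tested, against 0.279% of all 716, with 8 far ones at an unadjusted p under 0.05, against 8.52% of all. DESeq2 called 3 far fragments, against 0.559% of all. These 3 were seen at YY1 day 3 and hardly elsewhere. They passed the filter on low counts only through their day 3 counts. Their pattern and small p thus follow in part from that selection. The fragment chr17:59312969-59315149 had 10 and 11 counts in the YY1 day 3 libraries and none in the other 6. The fragment chr17:69187422-69189412 had 13 and 9 there and likewise none elsewhere. The fragment chr17:11029472-11030455 had 16 and 8 there and 1 each in OctSox and YY1 day 0 replicate 1. Their edgeR adjusted p values were 0.118, 0.118 and 0.250, and their DESeq2 adjusted p values 0.00785, 0.00785 and 0.0128. Between the lines edgeR called 0 of 240 far fragments and 0 of all 1270 (0%), with 21 far ones at an unadjusted p under 0.05, against 4.88% of all. DESeq2 called 0 far ones, against 0.0787% of all. The fragments with the smallest p were chr17:14655784-14657774, with 184 counts in OctSox day 3 replicate 1, 14 in OctSox day 0 replicate 2 and 3 in YY1 day 3 replicate 1, and chr17:75533080-75535472, with 6, 10 and 9 in 3 YY1 libraries and none in the OctSox line. The third was the fragment of 18865 bases in the window at 84 Mb, with a log2 fold change of YY1 over OctSox of -2.34 ± 0.91 (SE). The edgeR adjusted p was 0.641 for all 3.

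The most contacted single fragments show how uneven the far counts are between libraries. After the fragments in the windows at 84 and 94 Mb came chr17:10185227-10192732, seen in all 8 libraries, with 8 and 40 counts in the OctSox libraries at day 0, 10 and 5 at day 3, 24 and 6 in the YY1 libraries at day 0 and 27 and 26 at day 3. The fourth, chr17:63809433-63817108, had 420 counts in YY1 day 0 replicate 1 and none in the 3 other YY1 libraries, with 55, 2 and 18 in 3 OctSox libraries. The fifth, chr17:7844452-7846379, had 51 counts in OctSox day 3 replicate 2, 3 in YY1 day 0 replicate 2 and none in the other 6. Of the 6 far fragments seen in every library, 3 lay on the lower side, in the windows at 8, 9 and 10 Mb, and 3 on the higher side, 2 of them in the window at 84 Mb and 1 in that at 88 Mb.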

How the data were processed

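Libraries of 4C products from the wild-type Oct4 viewpoint were analysed. The authors deposited raw counts of reads per HindIII fragment of chromosome 17, with a list of fragment positions in the same order. Reads were aligned with Bowtie to mm9, per the submitters' processing notes. How reads were counted, and with which Bowtie version, is not given in the sources used here. Members, windows, tests and lists here were chosen with earlier results of these data known.

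Totals leave out the viewpoint fragment and its 2 neighbours. Depth outside them was 7090 to 333751 counts per library. Fragments were placed in 1 Mb windows by their start, and a window across a limit of the far region was split there. After filterByExpr (minimum count 10), windows and fragments were tested over the whole chromosome with edgeR 4.0.16 in R 4.3.3 (glmQLFit, glmQLFTest) and Benjamini-Hochberg adjustment at 0.05. Windows were scaled by the total outside the viewpoint and fragments by TMM factors. The SE of an edgeR log2 fold change is its size divided by the root of the test's F. DESeq2 1.42.0, scaled by its own median-of-ratios size factors, was an alternative. Library measures were tested by exact permutation. Other windows, distance limits, totals and left-out libraries were also tried. The tests were tried on simulated data with known folds. Shares and permutations were computed in Python 3.11.15 with scipy 1.17.1, numpy 2.4.6 and pandas 2.3.3, and drawn with matplotlib 3.10.9.

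Windows were named if among the 5 highest or 5 lowest by mean share per fragment (at least 100 fragments). Per comparison, up to 5 rises and 5 falls past the threshold with no overlap of libraries were added, or the 3 smallest p where fewer than 3 passed. Fragments followed the same rule, with the 5 of highest mean share. No gene was assigned and no sequence printed, because the annotation at hand is of another build.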

Additional observations from a re-analysis of the deposited data

How the results depend on the processing

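The day difference in far share kept its sign on both sides under all 17 alternatives run for each. Among these, the permutation over all 8 libraries and the replicate block could change only its p. It ran from 0.455 to 2.96 percentage points on the lower side and from 0.621 to 7.33 on the higher side, and from 2.20 to 2.64 and from 4.77 to 7.30 with single libraries left out. With labels permuted over all 8 libraries the same differences, 2.42 and 6.04 points, had an exact p of 0.0286 each. That is the smallest p that 70 arrangements allow. The lowest lower-side value came with a limit of 30 Mb, which leaves few fragments on that side. The day difference in the thinned number of far fragments seen turned to -13.8 with nothing left out at the viewpoint. It was 675.1 without the day 3 replicate 2 libraries, and ran from -133.1 to 296.8 with single libraries left out. The depth was the smallest total among the libraries kept, so these values are not all at 7090 counts. The share on the 10 most counted fragments turned to -1.40 points without the day 3 replicate 2 libraries, and the causes were not tested. The log2 ratio of the sides lost its call over all far fragments (-0.07315) and without the window at 56 Mb (-0.04151, added after seeing the data), and ran from -0.4578 to -0.3175 with single libraries left out, where 6 of the 8 fits also lost it.

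Far windows called over both lines numbered 0 with TMM factors, 0 scaled by the far total, 2 with DESeq2, 4 in 2 Mb windows, 3 in 0.5 Mb windows and 0 without the most counted fragment of each window (added after seeing the data). They numbered 0 to 9 with single libraries left out, the 9 without OctSox day 3 replicate 1. In the YY1 line they numbered 0 scaled by the far total, 9 in 2 Mb windows, 0 in 0.5 Mb windows, 0 without the 10 most contacted fragments, 0 without the most counted fragment of each window and 0 to 27 with single libraries left out. Single libraries left out gave 0 to 1 windows between the lines and for the difference in day effect, where the window at 95 Mb ran from -3.287 to 9.778. Scaling by the far total moved the median log2 change of far windows over both lines from 0.78 to 0.10, and TMM factors to 0.37. Far fragments called were 1 over both lines and 3 in the YY1 line with DESeq2, and 0 to 1 and 0 to 11 with single libraries left out.

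Same-numbered libraries of the days deviated with correlations of -0.05 in the OctSox and -0.11 in the YY1 line over 53 windows. With 2 libraries per group and shallow day 3 replicate 2 libraries, this cannot decide whether the replicate numbers pair libraries. With the replicate number as a block, 1 far window was called over both lines and 0 in the YY1 line. The difference in day effect then had 1. The far shares had an exact permutation p of 0.125, the smallest that 16 arrangements allow. With the numbers crossed in the YY1 line, added after seeing the data, 3 were called over both lines and 2 in the YY1 line.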
